A study of Mus musculus with 16 samples.

Results

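The 9 libraries described here were made from kidney glomeruli of untreated diabetic mice that lack endothelial nitric oxide synthase, genotype eNOS-/-//db/db. They were chosen by label, as all 9 of the 16 libraries in the series whose titles and agent field give no treatment. All 16 mice shared this genotype, so no library here comes from a mouse without diabetes or with intact eNOS. The other 7 mice drank water with 2 blockers of the renin-angiotensin system, the ACE inhibitor lisinopril at 20 mg/day and the receptor blocker losartan at 30 mg/day, from an age of 10 to 12 weeks until 26 weeks, and none of their values enter any result below. All mice ate a standard diet. The labels give the tissue as kidney, and the extraction text describes glomeruli taken from 1 kidney per mouse, perfused with iron particles and collected with a magnet. RNA of quality 8 or above went into poly(A) library preparation (Illumina TruSeq mRNA, version 2). The labels number the untreated libraries as replicates 0 to 8 without stating that each is another mouse; this is assumed, and the spreads given are between libraries. With 1 group there is no contrast to test. Levels, makeup and variability are therefore given as descriptions.

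A glomerulus is a capillary tuft that filters blood. Its wall holds fenestrated endothelial cells, a basement membrane and podocytes, whose interlocking foot processes carry the slit diaphragm, and mesangial cells hold the capillary loops together. The db allele removes leptin receptor signalling, so the mice become obese and diabetic. Loss of eNOS takes away the main endothelial source of nitric oxide, and mice with both defects are used as a model of advanced diabetic kidney disease. Sieved or magnet-collected glomeruli can carry attached tubule, arteriole and blood cells, so each preparation is a mixture of cell types.

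The deposited table gives FPKM values, fragments normalized for transcript length and library size, for 25791 gene symbols. In the untreated libraries 4901 symbols were listed at 0 throughout and 16346 were above 0 in all 9. The table has no counts, so absolute depth is unknown. The steps between low values put replicates 1 to 8 at 1.13 to 1.66 times the depth of replicate 0, with 68.6% to 82.4% of 119 to 166 low genes on such steps, and depth therefore limits the precision of low values most in replicate 0. Pairwise Pearson correlations of log2(FPKM + 1) between libraries ran from 0.83 to 0.98, and no library pair was identical. Summed FPKM, small RNAs left out, ran from 416238 to 466375. A single small RNA symbol, Mir27a, was listed at 672307 FPKM in replicate 7 and at 0 in the other 8. Whole-gene values of Nos3, which encodes eNOS, averaged 25.01 ± 10.6 FPKM (SD, n = 9), and Lepr, the leptin receptor gene, 0.379 ± 0.0929 FPKM (SD, n = 9). Neither value checks the alleles, since a gene-level FPKM does not show which exons were covered.

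Predicted or unnamed symbols, pseudogenes and small RNAs (7321 in all) were left out of the rankings, which leaves 18470 named genes. Of these, 11604 averaged at least 1 FPKM, 8884 at least 5, 705 at least 100 and 16 at least 1000. The most abundant was Tmsb4x, the actin-sequestering thymosin beta-4, at 3209 ± 949 FPKM (SD, n = 9). It was followed by Igfbp7, a secreted protein that binds insulin-like growth factors, at 2638 ± 654 FPKM. Itm2b, an integral membrane protein, averaged 2028 ± 376 FPKM. Eef1a1, the translation elongation factor, averaged 1921 ± 180 FPKM. The 25 highest genes together took 7.21% to 8.24% of the summed FPKM of a library, with a median of 7.66%, so no small group of mRNAs filled any library.

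The 25 most abundant genes came from several cell types of the preparation. Among genes of glomerular cells, Sema3g, a semaphorin of podocytes, averaged 905 ± 310 FPKM. Plat, tissue plasminogen activator, the highest member of the endothelial list, averaged 1414 ± 409 FPKM. Genes of matrix and matrix turnover were Sparc, a collagen-binding protein, at 1195 ± 289 FPKM and Timp3, an inhibitor of metalloproteinases, at 907 ± 209 FPKM. Tubule genes also ranked here. Gpx3, the extracellular glutathione peroxidase that proximal tubules secrete, averaged 1700 ± 1451 FPKM, Klk1, the kallikrein of the connecting tubule, 1215 ± 623 FPKM, and Fxyd2, the gamma subunit of the sodium pump, 936 ± 494 FPKM. Gpx3 ranged from 448 FPKM in replicate 0 through a median of 1243 to 4559 in replicate 1, with replicate 4 next at 3627. It was the most variable of the 25, with a coefficient of variation (CV, SD divided by mean) of 0.853. Ribosomal genes on the same list were steadier: Rpl41 ran only from 936 to 1124 FPKM around a median of 1023, a CV of 0.0598.

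**Figure D1:**
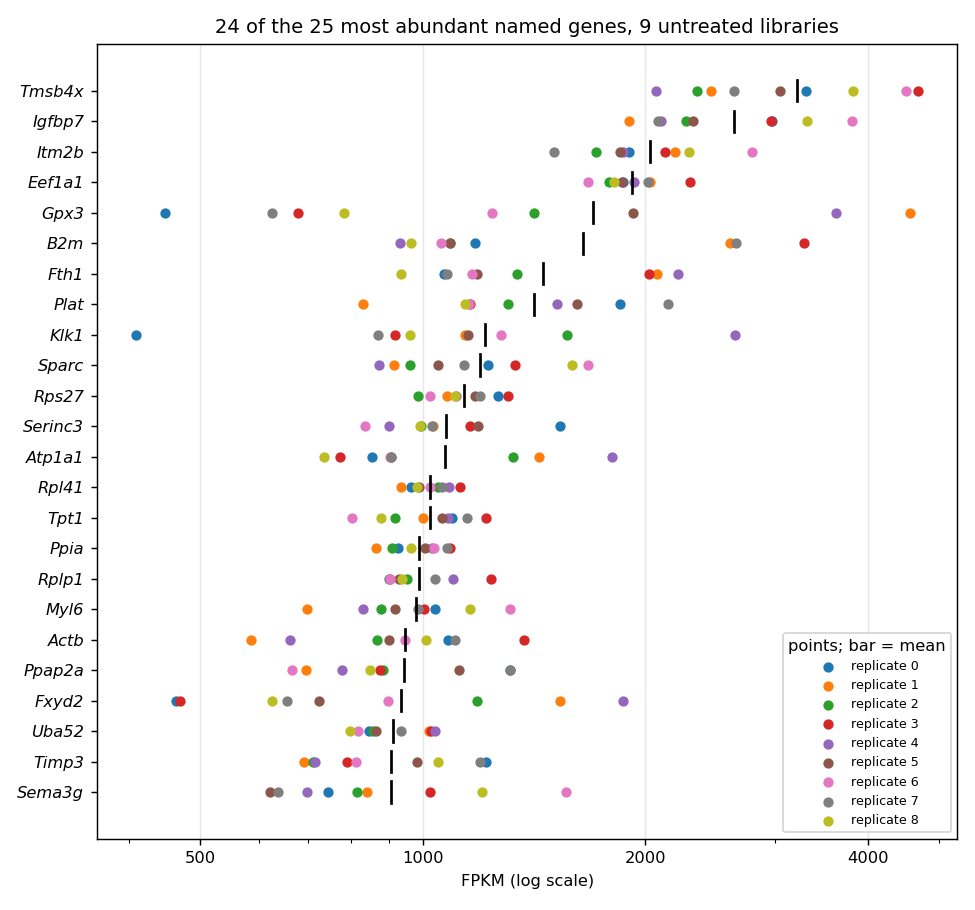
FPKM (log axis) of 24 of the 25 named genes with the highest mean over the 9 untreated libraries, 1 coloured point per library and a black bar at the mean. Gpx3, B2m, Klk1 and Fxyd2 spread widely, while Rpl41, Rps27, Eef1a1 and Ppia form tight clusters of points.

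Podocyte genes were abundant in every library and highest in replicates 6 and 8. Of 29 listed markers, 28 averaged at least 5 FPKM. The exception was Podxl, which encodes podocalyxin, a main glycoprotein of the podocyte surface. It was listed at 0 in all 9 libraries beside abundant Nphs1 and Synpo, so a listed 0 in this table does not show that a gene was silent. The summed level of the list ranged from 4284 FPKM in replicate 7 through a median of 5019 to 9769 in replicate 6, and replicate 8 was next at 7441. Nphs1, encoding nephrin of the slit diaphragm, measured 203, 243, 265, 244, 226, 205, 433, 189 and 289 FPKM in replicates 0 to 8. Replicate 6 stood alone at the top and replicate 8 was second. Wt1, a podocyte transcription factor, ranged from 82.2 to 262 FPKM around a median of 108, and Vegfa, the growth factor by which podocytes maintain the endothelium, from 219 to 553 FPKM around a median of 286, both highest in replicate 6. Without replicate 6 the CV of the summed list was 0.201, against 0.308 with it. In 10 of the 28 members both replicates 6 and 8 exceeded every other library (35.7%), against 6.97% of all 8884 genes with a mean of 5 or more. Not all podocyte genes moved so widely. Rhpn1, rhophilin 1, had the highest CV of the 28 (0.523, with 119 FPKM in replicate 5 and 421 in replicate 6). Mapt, the microtubule protein tau, had the lowest, 0.138, between 75.0 and 111 FPKM. Synpo, the actin-associated protein synaptopodin, had a CV of 0.161 around a mean of 470 FPKM. In bulk preparations such as these, fewer cells of a type and less RNA per cell cannot be told apart, here and in every list below.

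Endothelial genes were as abundant as podocyte genes and were highest in other libraries. Of 25 listed markers 23 averaged at least 5 FPKM. Their summed level ranged from 4165 FPKM in replicate 1 through a median of 5829 to 8556 in replicate 7, with replicate 0 next at 8464. Kdr, the VEGF receptor VEGFR2, measured 524, 371, 419, 351, 321, 477, 237, 465 and 267 FPKM in replicates 0 to 8. Emcn, the endothelial surface mucin endomucin, measured 849, 476, 739, 673, 614, 860, 503, 988 and 637 FPKM in the same order. For Kdr the lowest libraries were replicates 6 and 8, which were the highest for Nphs1, and for Emcn they were replicates 1 and 6. Eng, the TGF-beta co-receptor endoglin, varied 4.22-fold between replicate 1 (244 FPKM) and replicate 0 (1032 FPKM). Ehd3, an endocytic protein typical of glomerular capillaries, varied less, from 351 to 702 FPKM around a median of 448. Among the members with a mean of at least 5 FPKM, Nos3 had the highest CV, 0.422, and ran from 12.1 FPKM in replicate 1 to 43.8 in replicate 7. Cldn5, a tight-junction claudin that is on both the endothelial and the podocyte list, had the lowest, 0.193. The ratio of the summed podocyte to the summed endothelial list ran from 0.501 in replicate 7 to 2.23 in replicate 6, and the podocyte sum was the larger in 4 of the 9 libraries.

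Mesangial genes were highest in replicates 0 and 3 and lowest in replicates 4 and 1. Of 15 markers 14 averaged at least 5 FPKM, and their sum ranged from 921 FPKM in replicate 4 through a median of 1660 to 2777 in replicate 0. Agtr1a, the angiotensin II type 1a receptor of mesangial and juxtaglomerular cells, measured 164, 55.5, 81.9, 123, 36.2, 111, 84.1, 58.4 and 66.3 FPKM in replicates 0 to 8. Its span from replicate 4 to replicate 0 was 4.53-fold. Serpine2, a protease inhibitor, was as variable, from 187 FPKM in replicate 4 to 835 in replicate 3 around a median of 419. Igfbp5, another binding protein for insulin-like growth factors, was the most abundant member at 539 ± 151 FPKM and the least variable, with a CV of 0.281. In 9 of the 14 members replicate 0 was the highest library (64.3%), against 17.9% of all 8884 genes.

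Renin-lineage and contractile genes differed most in Ren1, which encodes renin, the enzyme that starts the angiotensin cascade. It measured 59.9, 6.92, 25.6, 263, 51.2, 52.9, 46.3, 36.8 and 39.6 FPKM in replicates 0 to 8. Replicate 3 lay far above the other 8 libraries and replicate 1 far below them, a 38.0-fold span. Akr1b7, an aldo-keto reductase of renin cells, was also highest in replicate 3 (16.8 FPKM) and lowest in replicate 1 (3.26 FPKM), around a median of 7.03. Rgs5, a pericyte regulator of G-protein signalling, ranged more narrowly, from 36.1 to 84.7 FPKM. The smooth muscle and pericyte list summed to 361 FPKM in replicate 1, a median of 861 and 1235 in replicate 0. In it, Acta2, smooth muscle actin, ran from 38.3 FPKM in replicate 1 to 281 in replicate 8, and Myl9, a myosin light chain, from 91.6 in replicate 1 to 581 in replicate 0. Replicate 1 was thus the lowest library for the endothelial, renin-cell and smooth muscle sums. Genes of parietal epithelium, the cells that line Bowman's capsule, were low, with a summed level of 103 to 182 FPKM, as were those of fibroblasts, 24.4 to 71.5 FPKM. The parietal list is not of parietal cells alone, since Lrp2 is also on the proximal tubule list. Its 7 members with a mean of at least 5 FPKM peaked in different libraries, 3 in replicate 4, 2 in replicate 8, 1 in replicate 3 and 1 in replicate 7.

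Tubule genes were present in all 9 libraries and varied far more than glomerular ones. The proximal tubule list summed to 128 FPKM in replicate 0, a median of 265, and 2341 in replicate 1, with 1864 in replicate 4, an 18.3-fold span. Of its 17 members averaging at least 5 FPKM, 14 had a CV of 1 or more, against 2.19% of all 8884 genes. In 14 of the 17 both replicates 1 and 4 exceeded every other library, against 13.8% of all 8884 genes. Slc34a1, which takes up phosphate there, measured 7.27, 241, 82.2, 29.4, 237, 121, 27.4, 19.1 and 6.70 FPKM in replicates 0 to 8. Pck1, the gluconeogenic enzyme, ran from 9.24 FPKM in replicate 8 to 455 in replicate 1 around a median of 25.6. Ass1, argininosuccinate synthase, ran from 15.9 to 346 FPKM around a median of 49.3, with the same libraries at the ends. Aqp1, a water channel that vascular cells also carry, was the steadiest of the list, from 17.1 to 60.1 FPKM.

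Lists of nephron segments beyond the proximal tubule had smaller spans between libraries, from 5.47-fold to 9.55-fold. Umod, uromodulin of the thick ascending limb, averaged 533 ± 333 FPKM and was above Nphs1 in 6 of the 9 libraries. It ran from 193 FPKM in replicate 0 through a median of 432 to 1168 in replicate 4. Slc12a3, the thiazide-sensitive cotransporter of the distal convoluted tubule, ran from 109 FPKM in replicate 8 through a median of 289 to 715 in replicate 1. Aqp2, the water channel of collecting duct principal cells, measured 52.8, 209, 332, 74.4, 545, 113, 170, 114 and 342 FPKM in replicates 0 to 8. Replicate 4 was the highest for the sums of all 4 of these segments, thick ascending limb, distal convoluted tubule, principal cell and intercalated cell. Replicate 8 did not follow one order across segments: its principal cell sum of 736 FPKM was second, while its distal convoluted sum of 313 FPKM was the lowest, and Aqp2 there was 51.1 times Slc34a1, against 0.864 to 7.26 times in the other 8. Slc26a4, pendrin of intercalated cells, averaged 25.5 ± 15.6 FPKM, and all 7 intercalated members with a mean of at least 5 were higher in replicates 1 and 4 than in any other library, against 13.8% of all 8884 genes.

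Genes of macrophages and dendritic cells were concentrated in replicate 3. The list summed to 471 FPKM in replicate 6, a median of 817 and 6233 in replicate 3, with replicate 7 next at 1457. All 14 members with a mean of at least 5 FPKM were highest in replicate 3, where 16.9% of all 8884 genes had their highest value. After upper-quartile scaling 13 of the 14 were (92.9%, against 11.1% of all 8884 genes), as after rescaling to a common sum (92.9%, against 9.05%). Cd74, the invariant chain of class II antigen presentation, measured 154, 267, 265, 1927, 383, 206, 152, 444 and 167 FPKM in replicates 0 to 8. C1qb, a chain of the complement component C1q, measured 35.9, 11.5, 42.4, 552, 80.9, 40.4, 21.7, 83.0 and 36.4 FPKM. For both genes the value in replicate 3 was several times that of the next library. Lyz2, the lysozyme of myeloid cells, was less extreme, from 83.4 FPKM in replicate 1 to 785 in replicate 3 around a median of 185. Without replicate 3 the CV of the summed list was 0.400, against 1.26 with it.

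Neutrophil genes followed another order. Of 9 listed markers only 4 averaged at least 5 FPKM. All 4 had a CV of 1 or more, against 2.19% of all 8884 genes. Their list summed to 27.5 FPKM in replicate 1, a median of 92.4 and 863 in replicate 0, followed by 524 in replicate 7 and 313 in replicate 3. S100a9, a calcium-binding protein that fills neutrophils, measured 526, 14.9, 21.4, 181, 44.1, 91.9, 57.8, 309 and 53.8 FPKM in replicates 0 to 8. Its ratio to C1qb ran from 0.328 in replicate 3 to 14.7 in replicate 0, although all 4 genes were higher in each of replicates 0, 3 and 7 than in any other library, against 8.10% of all 8884 genes. Il1b, the cytokine interleukin-1 beta, a gene of no list that was picked after its values were seen, was also highest in replicate 0, at 180 FPKM, with replicate 7 next at 47.8 and a median of 12.4. Erythrocyte genes were low to moderate, with sums of 44.1 to 373 FPKM. These sums rest on 6 of 9 listed markers, since the beta globin symbols Hbb-b2, Hbb-bs and Hbb-bt were not matched. They include Slc4a1, which is also on the intercalated cell list. Hba-a1, an alpha globin, was highest in replicate 2 at 169 FPKM, and its reads cannot be separated with certainty from those of its near-identical copy Hba-a2.

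Markers of some other cell types were low. The T and NK cell list summed to at most 12.2 FPKM and the B cell list to at most 17.1 FPKM, both in replicate 3, where the macrophage genes were also highest. These sums rest on the 10 of 12 and 5 of 8 listed markers that were matched in the table. Lck, the T cell kinase, averaged 2.204 FPKM and Cd79b, a part of the B cell receptor, 1.84 FPKM. Adipocyte genes summed to at most 0.235 FPKM, urothelial genes to at most 4.55 and adrenal cortex genes to at most 4.25, of which Star, the cholesterol carrier of steroid synthesis, made up most at a mean of 2.42 FPKM. Every library thus held abundant podocyte, endothelial and mesangial markers together with tubule genes of every nephron segment listed.

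**Figure D2:**
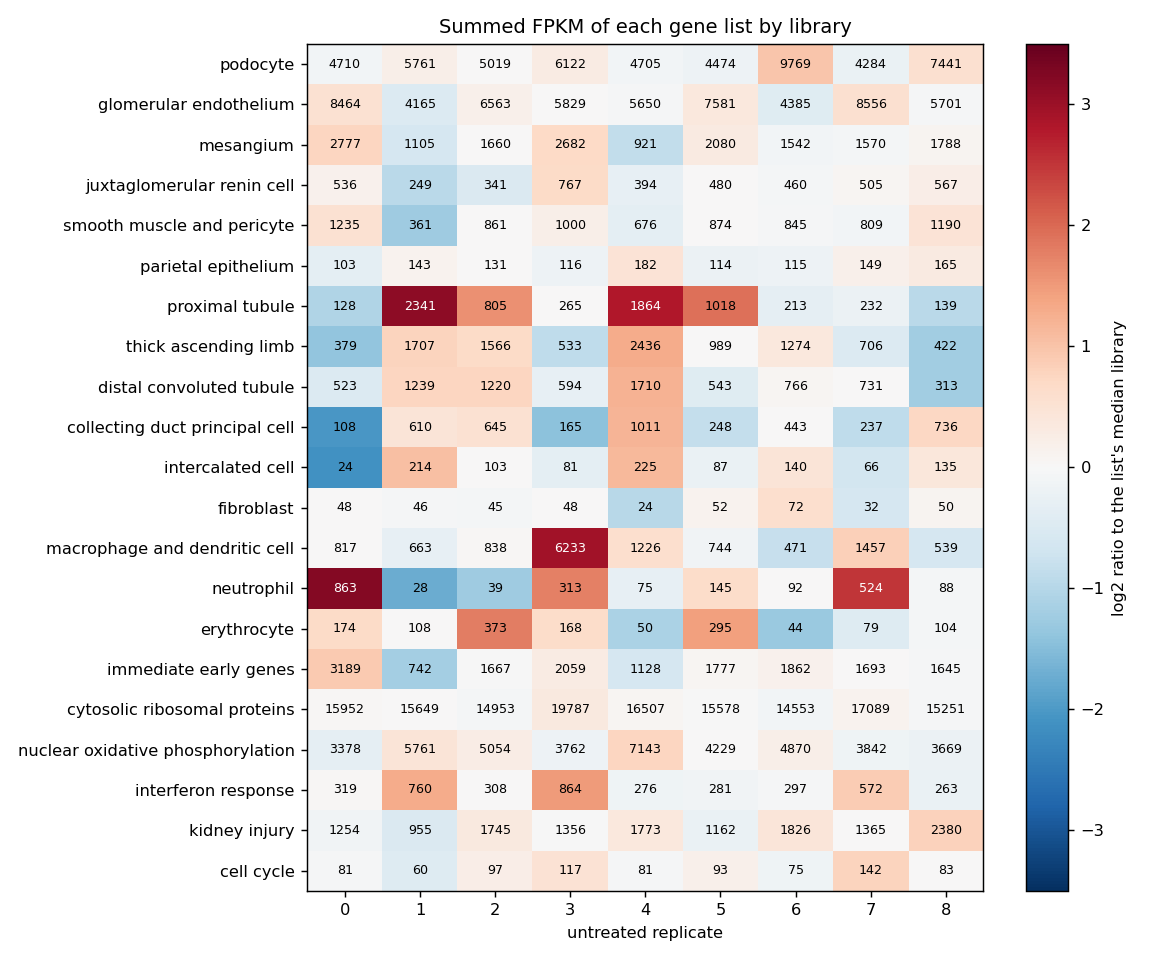
Summed FPKM of cell type and pathway gene lists (one line per list) in untreated replicates 0 to 8 (columns). The printed value is the sum, and colour is its log2 ratio to the list's median library. The macrophage list is reddest in replicate 3, the proximal tubule list in replicates 1 and 4, the neutrophil list in replicates 0 and 7, and the podocyte list in replicate 6.

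Variability between mice was measured as the CV over the 9 libraries for the 8884 named genes with a mean of at least 5 FPKM. The gene just inside this limit was Ms4a7 (mean 5.002 FPKM). The median CV was 0.141, and 10% of genes lay below 0.0677 and 10% above 0.427. Of all these genes 2631 (29.6%) had a CV under 0.1 and 195 (2.19%) a CV of 1 or more. Abundance alone did not order the genes. The median CV was 0.142 for means of 5 to 20 FPKM, 0.133 for 20 to 100, 0.178 for 100 to 1000 and 0.268 for the 16 genes above 1000. Of the cell type lists with at least 7 such genes, proximal tubule (median CV 1.16) and macrophage genes (1.35) were the most variable. Endothelial (0.284), smooth muscle (0.315), renin-cell (0.321), podocyte (0.364) and mesangial genes (0.427) were the least. The renin-cell median covers a wide range of CVs, from 0.0894 for Rbpj to 1.18 for Ren1, with Akr1b7 the second highest at 0.558.

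**Figure D3:**
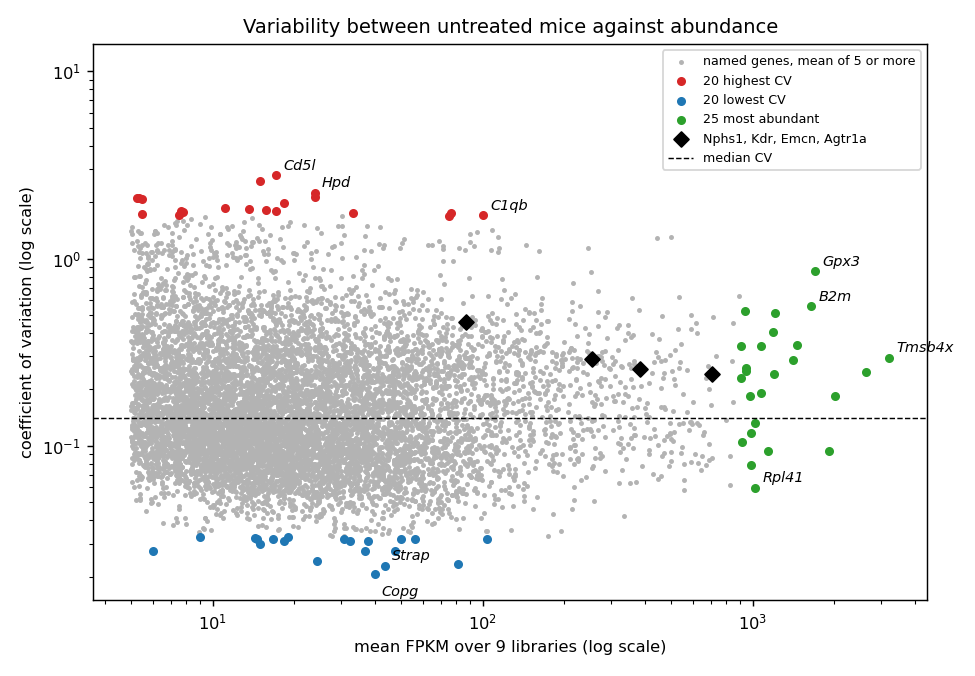
CV over 9 untreated libraries (log axis) against mean FPKM (log axis) for 8884 named genes, with the 20 highest and 20 lowest CV, the 25 most abundant genes and the 4 glomerular markers coloured. The dashed line is the median CV of 0.141. The most variable genes mostly have means under 100 FPKM, and the 4 markers lie above the dashed line.

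The 195 genes with a CV of 1 or more had their highest values in few libraries. Replicate 3 held the highest value of 99 of them (50.8%, against 16.9% of all 8884 genes) and replicate 1 of 67 (34.4%, against 12.9%), and none of the other 7 libraries held more than 17. Without replicate 3, 96 genes had a CV of 1 or more, and without replicates 1 and 3 together, 83. The 20 most variable genes were of 2 kinds, 14 highest in replicate 3 and 6 in replicate 1. The first kind was led by Cd5l, a scavenger-receptor protein secreted by tissue macrophages, with a CV of 2.78 ± 1.31 (jackknife SE). It measured 0.793, 0.0575, 1.34, 144, 4.26, 2.57, 0.0457, 0.870 and 0.156 FPKM in replicates 0 to 8, so that 1 library held nearly all of it, and without that library its CV was 1.17. Fcna, the macrophage lectin ficolin A, followed with a CV of 2.61 ± 1.35 and 119 FPKM in replicate 3 against a median of 2.08. The other 12 were Adamdec1, a protease of macrophages, the formyl peptide receptors Fpr1 and Fpr2, the lectin Clec4n, the complement regulator properdin (Cfp), the serpin Serpina3g, the myeloid adhesion receptor Emr4, the chemokine Ccl4, the scavenger receptor Msr1 and the 3 C1q chains C1qa, C1qb and C1qc, with CVs from 1.68 to 2.11. Without replicate 3 the CV of C1qb was 0.581. Vcam1, an adhesion molecule of activated endothelium and of some macrophages, and the iron-handling genes Slc40a1 (ferroportin) and Trf (transferrin) were likewise highest in replicate 3, at 164, 119 and 145 FPKM against medians of 13.8, 12.7 and 16.3.

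The second kind consisted of enzymes that liver and proximal tubule use in metabolism. Hpd, which degrades tyrosine, measured 0.307, 165, 4.87, 0.554, 22.1, 17.8, 1.81, 1.38 and 0.485 FPKM in replicates 0 to 8, a CV of 2.25 ± 0.738 (jackknife SE). Cyp2a5, Cyp2d9, Cyp4a14 and Cyp2e1, all cytochromes P450, and Ugt1a2, a glucuronosyltransferase, had CVs from 1.76 to 2.13. Cyp2e1 reached 181 FPKM in replicate 1 and 54.1 in the next library, against a median of 2.87. The sum of the proximal tubule list was also highest in replicate 1, but Hpd there exceeded replicate 4 by 165 to 22.1 FPKM while Slc34a1 was nearly level at 241 and 237 FPKM. Several of these enzymes belong to families of close copies, so the split of reads between copies is uncertain.

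**Figure D4:**
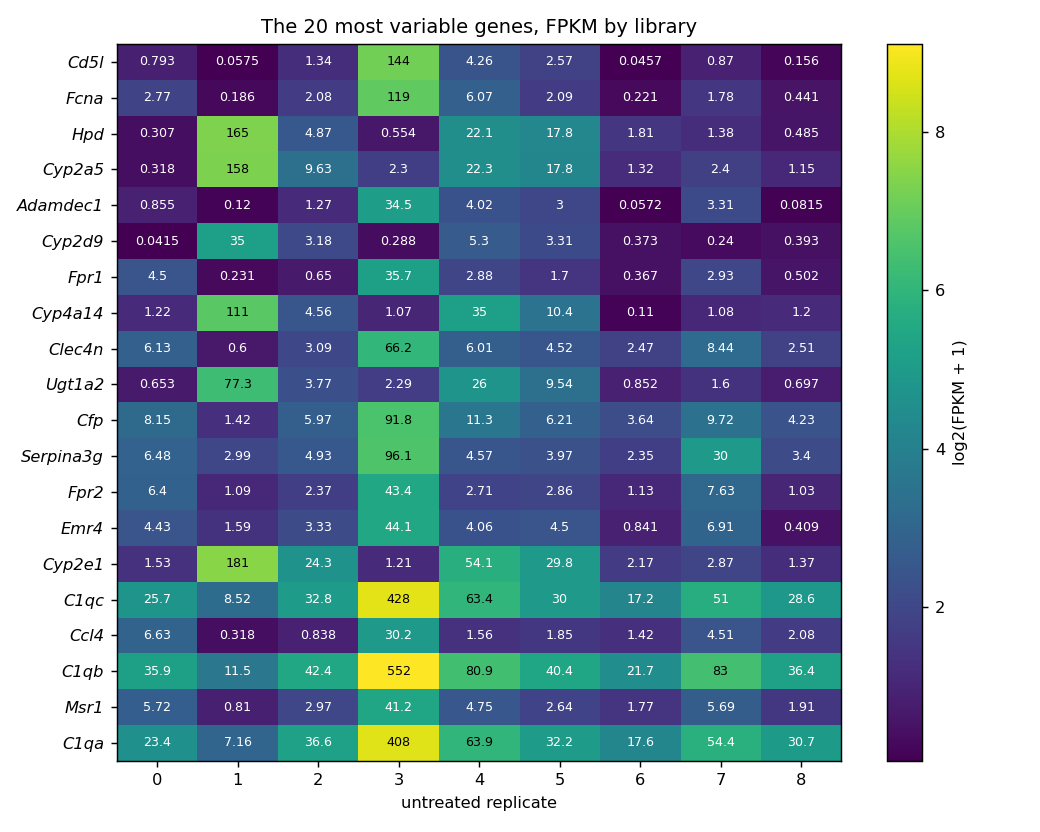
FPKM of the 20 named genes with the highest CV (one line per gene, highest CV on top) in untreated replicates 0 to 8. Numbers are FPKM and colour is log2(FPKM + 1). Bright cells fall almost wholly in replicate 3 (macrophage genes) and replicate 1 (metabolic enzymes).

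At the other end of the ranking, 20 genes had the lowest CVs. Copg, a coat protein of Golgi vesicles, had the lowest CV, 0.0206 ± 0.00459 (jackknife SE), and measured 40.9, 39.1, 39.4, 39.2, 40.1, 38.8, 41.2, 39.8 and 40.0 FPKM in replicates 0 to 8. Strap, a protein of the SMN complex, followed at 43.5 ± 0.996 FPKM (SD, n = 9). Pcyt1a makes phosphatidylcholine precursors, Polr3a is the largest subunit of RNA polymerase III, Sec11a a subunit of the signal peptidase and Yars the tyrosyl-tRNA synthetase. These 4 had CVs from 0.0242 to 0.0298. The membership of this end of the ranking changed with the scaling: after upper-quartile scaling 4 of the 20 steadiest genes remained among the 20, and after rescaling every library to a common sum 0 did. Genes often used as references ranged widely. Ppia, cyclophilin A, had a CV of 0.0786 and Rpl13a, a ribosomal protein, 0.0789. Hprt, of purine salvage, had 0.107, Gapdh, of glycolysis, 0.189, Actb, cytoplasmic actin, 0.250, Tfrc, the transferrin receptor, 0.521 and B2m 0.557.

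B2m, the light chain of MHC class I molecules and the sixth most abundant gene, marked a pattern shared by interferon-response genes. It measured 1178, 2602, 1090, 3282, 933, 1089, 1059, 2656 and 965 FPKM in replicates 0 to 8. Replicates 1, 3 and 7 lay at 2602 FPKM or above and the other 6 at or below 1178. Of 15 interferon-response genes with a mean of at least 5 FPKM, 12 were higher in each of replicates 1, 3 and 7 than in any of the other 6 (80.0%), against 120 of all 8884 genes (1.35%). These 3 libraries were singled out after the values were seen, so the share is a description. Psmb9, a subunit of the immunoproteasome, measured 32.8, 121, 31.4, 107, 25.4, 29.5, 40.3, 78.5 and 25.2 FPKM. Gbp2, a guanylate-binding protein, reached 59.7, 29.0 and 17.5 FPKM in replicates 1, 3 and 7 and at most 9.72 elsewhere. Ifit3, an interferon-induced tetratricopeptide protein, reached 41.6, 24.97 and 16.5 FPKM in the same libraries and at most 9.19 elsewhere. For Psmb9, Gbp2 and Ifit3 replicate 1 was the highest of the 3, and for B2m and Irf1, an interferon-regulatory transcription factor, it was replicate 3. The exceptions include Cxcl10, a chemokine, which was high in replicate 3 alone (93.7 FPKM, next 16.8), and Ddx58, the RNA sensor RIG-I, which hardly varied at 9.003 to 11.8 FPKM. In the values as deposited, all 14 macrophage genes with a mean of at least 5 FPKM were highest in replicate 3 (against 16.9% of all 8884 genes). Of these, 7 were lowest in replicate 1, Lyz2 and C1qb among them, 5 in replicate 6 and 2 in replicate 8. Replicates 1 and 3 are both among the 3 libraries with high interferon-response values. Of the 14, 1 (7.14%, against 1.35%) was higher in each of replicates 1, 3 and 7 than elsewhere. It was H2-Ab1, at 119, 453 and 138 FPKM there and at most 91.5 in the others. The macrophage sums of replicates 1, 3 and 7 were 663, 6233 and 1457 FPKM, and their part in the interferon values was not tested.

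Promoter sequences were searched for letters known from binding sites of interferon-regulated factors. Of the genes with a match, 4 that were high in replicates 1, 3 and 7 (Gbp2, Gbp3, Ifit3 and B2m, which is not on the list) are shown as examples of where the match lies. RefSeq promoter sequences (GRCm38.p6) matched 16 of the 20 listed interferon genes by symbol. The core of the interferon-stimulated response element, written as GAAA, then 2 bases of any kind (N), then GAAA, was searched on both strands in the 250 bases before the start. It occurred in 8 of the 16 (50.0%) and in 3.46% of 27025 symbols with a promoter. The letters TTCNNNGAA, the gamma-activated core, were found in 4 of the 16 (25%) and in 8.13% of all symbols. The match did not divide the genes by their pattern: Irf1 and Psmb8 were high in replicates 1, 3 and 7 without the first core, and Rsad2 and Cxcl10 held it without that pattern. A match describes letters only and shows no binding. Each sequence below is the plus strand of the 160 bases before the start, 5′ to 3′, with this core or its reverse complement in capitals. Where a symbol had several promoters, the one with the most matches is shown. The genes lie at chr3:142620503-142620662 (Gbp2), chr3:142559884-142560043 (Gbp3), chr19:34583369-34583528 (Ifit3) and chr2:122147527-122147686 (B2m).
Gbp2: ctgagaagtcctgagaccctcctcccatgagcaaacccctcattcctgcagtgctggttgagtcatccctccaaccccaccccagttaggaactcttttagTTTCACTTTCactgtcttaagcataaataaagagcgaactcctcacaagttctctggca
Gbp3: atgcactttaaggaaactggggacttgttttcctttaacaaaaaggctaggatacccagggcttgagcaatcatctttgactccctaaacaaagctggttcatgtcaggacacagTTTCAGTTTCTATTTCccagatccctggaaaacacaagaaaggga
Ifit3: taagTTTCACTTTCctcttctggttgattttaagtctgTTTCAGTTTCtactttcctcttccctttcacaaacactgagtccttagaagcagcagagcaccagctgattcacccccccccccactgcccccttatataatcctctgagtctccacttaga
B2m: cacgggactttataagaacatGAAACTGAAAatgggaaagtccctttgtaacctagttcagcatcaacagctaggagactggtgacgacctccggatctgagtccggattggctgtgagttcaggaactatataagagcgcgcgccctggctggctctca
In Gbp2 the match begins 59 bases before the start and in B2m 139 bases before it. Gbp3 holds 2 overlapping matches, beginning 45 and 39 bases before the start, and Ifit3 holds 2 separate ones at 156 and 122 bases. All 4 genes had their 3 highest values in replicates 1, 3 and 7, the pattern for which they were chosen. Gbp3, a paralog of Gbp2, measured 44.4, 23.3 and 19.0 FPKM there and at most 7.05 elsewhere.

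Immediate early genes, transcribed within minutes of a stimulus, were highest in replicate 0. Of 17 with a mean of at least 5 FPKM, 13 had their highest value there (76.5%), against 17.9% of all 8884 genes. Cyr61, a matricellular protein, measured 263, 16.6, 75.2, 53.6, 45.5, 76.4, 102, 85.1 and 82.0 FPKM in replicates 0 to 8. Egr1, a zinc-finger transcription factor, was at 59.9 FPKM in replicate 0, 31.3 in the next library and 15.9 at the median. Nr4a1, an orphan nuclear receptor, ran from 16.2 FPKM in replicate 1 through a median of 122 to 322 in replicate 0. The list's sum was lowest in replicate 1 (742 FPKM, against 3189 in replicate 0). Ctgf, a matrix protein abundant in podocytes and mesangium, ran from 195 FPKM in replicate 1 to 1278 in replicate 0, and Jun, an AP-1 subunit, varied least (50.0 to 72.1 FPKM). Of 12 heat shock genes, 6 were lowest in replicate 0 (50%, against 19.9% of all 8884 genes). Replicate 4 was the highest library for 6 of the 12 (50%, against 15.6%). The sum of all 12 stayed between 1467 and 1689 FPKM. In it the constitutive chaperone Hspa8 ran from 433 to 592 FPKM, and Hspa1b, a stress-induced HSP70, from 4.57 FPKM in replicate 3 to 13.7 in replicate 4.

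Genes of oxidative phosphorylation and fatty acid oxidation mostly followed the tubule genes, and those of triacylglycerol synthesis and lipid droplets did so in part. The sum of this last list was highest in replicate 3, at 357 FPKM, with 329 in replicate 1 and 328 in replicate 4. Of 19 nuclear genes of oxidative phosphorylation, 15 were higher in both replicates 1 and 4 than in any other library (78.9%), as were 15 of 20 genes of fatty acid oxidation (75.0%) and 6 of 12 of triacylglycerol synthesis and lipid droplets (50.0%), against 13.8% of all 8884 genes. Atp5b, a subunit of ATP synthase, ran from 508 FPKM in replicate 0 through a median of 663 to 1177 in replicate 4. Dgat2, which completes triacylglycerol synthesis, ran from 5.64 FPKM in replicate 0 to 27.3 in replicate 1, while Bscl2, the lipid droplet protein seipin, stayed between 23.5 and 29.9 FPKM. Plin2, a coat protein of lipid droplets, was highest in replicate 3 (102 FPKM, median 39.6). The proximal tubule sums of replicates 1 and 4 were 2341 and 1864 FPKM, the highest 2 of the 9, and their part in these metabolic values was not tested. Cytosolic ribosomal protein genes were steady, with a median CV of 0.114. Of these 33 genes, 32 were nevertheless highest in replicate 3 (97.0%, against 16.9% of all 8884 genes), and 23 were so after each library was rescaled to a common sum (69.7%, against 9.05%). Rpl5 was listed at a mean of 8.42 FPKM while Rpl7 averaged 555, and ribosomal genes have many processed copies among which reads can be split.

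Components of the filter wall and its signalling varied less than tubule genes, with a median CV of 0.318 for the basement membrane list and 0.284 for the VEGF and angiopoietin list. Col4a3, of the adult basement membrane network that podocytes make, ran from 116 FPKM in replicate 7 through a median of 146 to 310 in replicate 6, the order of the podocyte genes at both ends. Col4a1, of the network found in mesangial matrix, ran from 86.9 FPKM in replicate 1 to 267 in replicate 3 around a median of 157. Agrn, the proteoglycan agrin, was steady at 49.9 ± 6.91 FPKM (SD, n = 9). The 13 VEGF and angiopoietin genes summed to 1105 to 1647 FPKM, a CV of 0.126. Among them Tie1, an endothelial receptor, ran from 92.8 FPKM in replicate 6 to 197 in replicate 0, and Nrp1, a VEGF co-receptor, was the least variable, from 137 to 259 FPKM.

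The renin-angiotensin list ran from highly variable to steady members. Ren1, described above, had a CV of 1.18, and 0.428 without replicate 3. Ace, the converting enzyme, was modest at 17.9 ± 5.01 FPKM (SD, n = 9), from 11.6 in replicate 6 to 25.1 in replicate 3. Enpep, aminopeptidase A, which podocytes carry and which degrades angiotensin II, ran from 246 FPKM in replicate 7 through a median of 289 to 682 in replicate 6. Atp6ap2, the prorenin receptor, and Lnpep, an aminopeptidase that binds angiotensin IV, were steady, with CVs of 0.0931 and 0.0799. In the nitric oxide and cGMP list, Npr1, the receptor for atrial natriuretic peptide, was the most abundant member at 105 ± 13.7 FPKM. Nos3, at 25.01 FPKM, was the most variable of the members with a mean of at least 5, and was 3.61 times higher in replicate 7 than in replicate 1.

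Clock genes differed between libraries, and the labels give no hour of collection. Arntl, encoding the activator BMAL1, was low, from 0.906 FPKM in replicate 5 through a median of 1.95 to 5.33 in replicate 8. Dbp, an output gene of the clock that peaks when Arntl is low, ran from 25.4 FPKM in replicate 8 through a median of 64.4 to 80.9 in replicate 1. Replicates 8 and 0, the highest for Arntl, were the lowest for Dbp. Nr1d1, the repressor REV-ERB alpha, ran from 43.0 FPKM in replicate 0 to 103 in replicate 1, and Clock, the partner of BMAL1, was steady at 14.9 ± 1.40 FPKM (SD, n = 9). The E-box letters CACGTG occurred in the 250 bases before the start in 5 of 15 matched clock genes (33.3%), against 6.86% of all symbols. A second motif, the D-box letters TTATGTAA, occurred in 1 of the 15 (6.67%), against 0.977% of all symbols.

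Of 10 injury genes with a mean of at least 5 FPKM, 5 were highest in replicate 8, against 7.31% of all 8884 genes. Replicate 3 was highest for 2 (16.9% of all genes), replicate 4 for 2 (15.6%) and replicate 7 for 1 (10.0%). Lcn2, the injury marker lipocalin-2, measured 46.4, 26.2, 49.1, 24.1, 41.7, 17.1, 52.0, 43.3 and 126 FPKM in replicates 0 to 8, so that replicate 8 stood apart. Spp1, osteopontin, and Clu, clusterin, were also highest in replicate 8, at 965 and 527 FPKM against medians of 495 and 289. Cdkn1a, the cell cycle inhibitor p21, was instead highest in replicate 7 at 110 FPKM, around a median of 35.3. In 7 of 12 iron-handling genes replicate 3 was the highest library (58.3%, against 16.9% of all 8884 genes), among them Hmox1, heme oxygenase 1, at 114 FPKM against a median of 25.9. The macrophage sum was also highest there, at 6233 FPKM with 1457 in the next library, and its part in these values was not tested. Ireb2, an iron-responsive regulator of translation, hardly varied (14.7 to 18.2 FPKM). The cell cycle list had only 2 genes with a mean of at least 5 FPKM and summed to 59.9 to 142 FPKM, and Pcna, a replication clamp, was highest in replicate 7 at 87.0 FPKM.

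Across the 9 libraries 12 pairs of genes were compared on the log2(FPKM + 1) scale, each with an exact two-sided permutation test over every possible pairing and Benjamini-Hochberg adjustment over the 12. The pairs were chosen with earlier results of these data known, so the p-values are not those of pairs fixed in advance. All points share the normalization of FPKM, in which a higher share for one transcript lowers the others. Nphs1 and Kdr were inversely related, with Pearson r = -0.85 (exact p = 0.00156, adjusted p = 0.0187) and Spearman rho = -0.80 (exact p = 0.0138, adjusted p = 0.151). Without replicates 6 and 7, the farthest from the median of Nphs1, r was -0.76. The call was lost without replicate 6 (r = -0.77, adjusted exact p = 0.106) and without replicate 8 (r = -0.86, adjusted exact p = 0.0574). Nphs1 with Emcn (r = -0.71, adjusted exact p = 0.0631) and Kdr with Emcn (r = 0.76, adjusted exact p = 0.0586) missed the threshold of 0.05. They passed it without replicate 1, at r = -0.87 and 0.92 (adjusted exact p = 0.0147 for both).

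Arntl and Dbp were inversely related (r = -0.81, exact p = 0.0102, adjusted p = 0.0407; rho = -0.68, exact p = 0.0503), but without replicates 8 and 0 r was -0.03, so the relation rests on those libraries. With 1 library left out at a time its adjusted exact p was above 0.05 for all libraries but replicates 1 and 4, at 0.0539 to 0.210. Ren1 and Akr1b7 rose together (r = 0.86, exact p = 0.00493, adjusted p = 0.0296; rho = 0.68, exact p = 0.0503), and without replicates 1 and 3 r was 0.40, so this relation rests on them. Leaving out replicate 1, 2, 3, 6 or 7 alone raised its adjusted exact p above 0.05, to between 0.0539 and 0.0957. The other 7 pairs, all with Agtr1a or Slc34a1, had r between -0.50 and 0.40 and adjusted exact p of 0.349 or more. No Spearman coefficient passed after adjustment, the lowest adjusted exact p being 0.151.

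**Figure D5:**
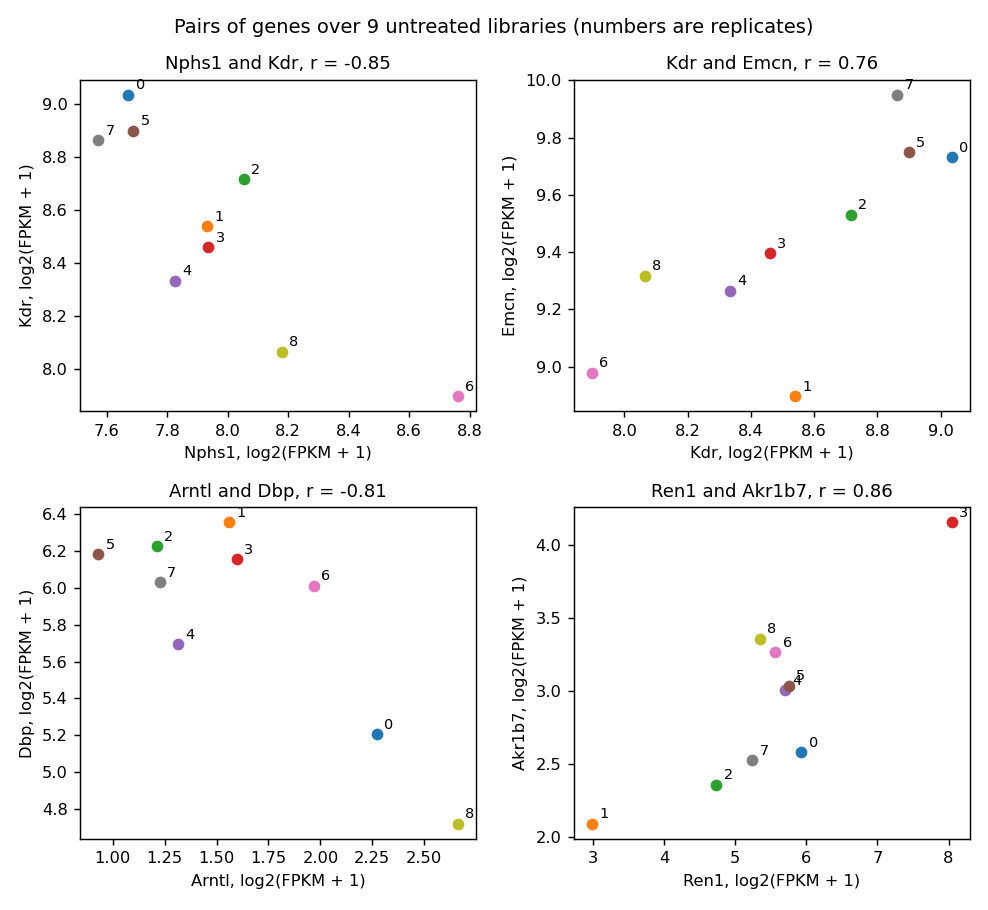
Log2(FPKM + 1) of 4 gene pairs over the 9 untreated libraries, each point labelled with its replicate number. Nphs1 falls as Kdr rises, while the Arntl with Dbp relation hangs on replicates 8 and 0 and the Ren1 with Akr1b7 relation on replicates 1 and 3.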

How the data were processed

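Poly(A) libraries from glomeruli of 9 untreated eNOS-/-//db/db mice were read from the deposited table of FPKM values made by the authors, 1 column per library. TopHat2 2.0.8, Cuffdiff 2.2.1, Cufflinks, CASAVA 1.8.2 and FastQC are listed, without roles, per the submitters' processing notes. The sources used here state no genome build, annotation or use of strand. Reads of overlapping, antisense or near-identical genes cannot be told apart. Columns were matched to samples by title, and the columns of the 7 treated mice were not used. No value was transformed for the rankings. CVs (n - 1) had jackknife standard errors, and correlations used log2(FPKM + 1). Python 3.11.15, pandas 2.3.3, numpy 2.4.6 and scipy 1.17.1 were used, and the CV and permutation code was tested on simulated data.

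The members, the 37 gene lists (20 of cell types, 17 of pathways) and the 12 pairs were chosen with earlier results of these data known. Named genes were the 25 highest by mean, the 20 highest and 20 lowest by CV among means of 5 or more, each list's 4 most abundant, most variable and steadiest members, and 14 fixed genes. No gene with a mean of 5 or more was listed at 0 in any library, so none was named under the rule for such genes. Wt1, Il1b, Slc40a1, Hprt, Gapdh, Tfrc, Gbp2, Gbp3, Ifit3, Egr1 and Lcn2 were added after their values were seen. The list of 13 mitochondrially encoded genes was not analysed here. The libraries set apart in a list were also picked after values were seen, and are read against the share of all 8884 genes. Depth is unknown, and no counting interval was given. Alternatives were upper-quartile scaling, rescaling to a common sum, other minimum means, a robust CV, log-scale SDs, untransformed and otherwise offset values and leaving out libraries. A few genes are not reported here.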

Additional observations from a re-analysis of the deposited data

Results flagged for a closer look

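In 129 genes named above and 36 list sums, each library was compared with the rest by the gap to its nearest neighbour relative to the whole range, and 47 of the 165 had a library set apart by Dixon's 95% limit. For normally distributed values not chosen for their spread, chance sets apart about 1 in 20 groups. The FPKM values were compared without a log, and their distribution was not tested. Many of these genes were named for a high CV or after their values were seen, and genes of one list are not independent, so the number set apart cannot be read against that share. Replicate 3 was the library set apart in 31 of the 47. All values here are FPKM.

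In replicate 3 the macrophage and dendritic cell sum was 6233, the cytosolic ribosomal sum 19787, the T and NK cell sum 12.2 and the B cell sum 17.1. Among macrophage and myeloid genes, Cd74 was at 1927, Lyz2 at 785, C1qb at 552, C1qc at 428, C1qa at 408, Cd5l at 144, Fcna at 119 and Serpina3g at 96.1. Cfp was at 91.8, Clec4n at 66.2, Emr4 at 44.1, Fpr2 at 43.4, Msr1 at 41.2, Fpr1 at 35.7, Adamdec1 at 34.5, Ccl4 at 30.2 and Ms4a7 at 23.3. Ms4a7, a macrophage membrane protein, is the gene whose mean just passed the limit of 5. Iron-handling and other genes set apart there were Vcam1 at 164, Trf at 145, Slc40a1 at 119, Hmox1 at 114, Plin2 at 102, Cxcl10 at 93.7 and Cd79b at 7.10. The renin-cell genes Ren1, at 263, and Akr1b7, at 16.8, were set apart in the same library, as was Rpl13a at 796.

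In replicate 1, Cyp2e1 was at 181, Hpd at 165, Cyp2a5 at 158, Cyp4a14 at 111, Ugt1a2 at 77.3 and Cyp2d9 at 34.97, together with the guanylate-binding genes Gbp2 at 59.7 and Gbp3 at 44.4. In replicate 0, Cyr61 was at 263, Il1b at 180 and Egr1 at 59.9. In replicate 6 the podocyte genes Enpep, at 682, and Nphs1, at 433, were set apart. In replicate 8 it was Lcn2, at 126. In replicate 7, Polr3a was at 6.37 and the small RNA symbol Mir27a at 672307, which was 60.9% of the summed FPKM of that library with small RNAs counted.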

How the results depend on the processing

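No paired analysis was possible because only 1 group was described. Of the values tied to the rankings, sums, CV counts and pairs, 408 kept their call or size under an alternative, 37 moved, 15 lost a call, 6 gained one and 0 reversed. For single genes' CVs, 544 kept their size and 68 moved. The settings that left out replicates 1 and 3 together or added unnamed symbols were chosen after seeing the data. The number of genes with a CV of 1 or more (195) was 96 to 211 with 1 library left out (lowest without replicate 3), 83 without replicates 1 and 3, 374 at a minimum mean of 1, 56 at 20, 2397 with no minimum and 62 with a robust CV. The 2631 genes with a CV under 0.1 became 1339 at a minimum mean of 20. The median CV of 0.141 became 0.155 after rescaling to a common sum, 0.164 at a minimum mean of 1 and 0.255 with no minimum. Of the 20 most variable genes, 10 stayed in that set after rescaling, 6 to 20 with 1 library left out, 3 without replicates 1 and 3, 8 at a minimum mean of 1, 6 at 20, 0 with no minimum, 6 with a robust CV, 7 by SD of log2(FPKM + 1), 9 by SD of log2(FPKM + 0.1) and 8 with unnamed symbols. Of the 20 steadiest, 4 stayed after upper-quartile scaling, 0 after rescaling, 8 to 14 with 1 library left out, 6 without replicates 1 and 3, 12 at a minimum mean of 20 and 1 with a robust CV. The CV of the summed macrophage list was 0.400 to 1.35 with 1 library left out and 0.409 without replicates 1 and 3, that of the podocyte list 0.201 to 0.331, and that of the renin-cell list 0.169 without replicates 1 and 3. For pairs with 1 library left out, r was -0.90 to -0.77 for Nphs1 with Kdr, -0.87 to -0.63 for Nphs1 with Emcn, 0.67 to 0.92 for Kdr with Emcn, -0.86 to -0.61 for Arntl with Dbp and 0.69 to 0.91 for Ren1 with Akr1b7. Kdr with Emcn passed at r = 0.78 after rescaling, 0.79 on FPKM without log and 0.92 without replicates 1 and 3, where Nphs1 with Emcn also passed (-0.88) and Ren1 with Akr1b7 did not (0.40, adjusted exact permutation p = 0.655). Over the 14 alternatives, the adjusted exact permutation p of Nphs1 with Kdr ran from 0.00982 to 0.106. The cause of these shifts was not tested beyond the smaller gene sets and fewer libraries that the settings themselves make. Upper-quartile scaling and rescaling moved each library's median by less than 0.1 on the log2 scale. Low values are limited most by depth in replicate 0.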
